A study of Caenorhabditis elegans with 2 samples.

Results

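Small nucleolar RNA (snoRNA) genes were taken from the Ensembl annotation of the WBcel235 (ce11) assembly by their biotype. There were 346 of them among 46926 annotated genes. Each gene was widened by 500 bp on both sides, and a deposited call was counted at the gene where its summit lay in that window. The members were therefore chosen by annotation and position, not by measured values. Calls at snoRNA genes made up 10 of the 48 peaks of the optimal set, 43 of 670 pooled calls, 152 of 21050 calls of replicate 1 and 137 of 14257 calls of replicate 2. The optimal set is the list left by the irreproducible discovery rate (IDR) procedure, which compares the ranks of calls between replicates, and the other lists are its permissive input, described in the deposited notes as peaks together with background.

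The calls came from chromatin immunoprecipitation and sequencing (ChIP-seq) with an anti-GFP antibody on sonicated chromatin of whole Caenorhabditis elegans. The animals were hermaphrodites of strain OP385, genotype unc-119(tm4063) III; wgIs385, in which the F55B11.4 protein carries a GFP-FLAG tag at its C terminus. They were synchronized by bleaching and L1 starvation and collected 65 hours later as young adults. There were 2 biological replicates from separate biosamples and no second group. Both carry the unc-119 mutation and the inserted transgene, so the calls describe the tagged protein in 1 transgenic line, and tissues were not separated. The deposited notes name 1 control library for both replicates, not analysed here, and the number of reads behind each list is unknown. Of the 48 optimal peaks 30 were nuclear and the others mitochondrial, and ranks are given over the whole list unless called nuclear.

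SnoRNAs are short nucleolar RNAs that guide chemical changes in other RNAs, chiefly ribosomal RNA. Box C/D snoRNAs guide ribose methylation and are bound by a core of proteins that includes fibrillarin, Nop56 and Nop58, and box H/ACA snoRNAs guide the conversion of uridine to pseudouridine. Many are cut out of introns of protein-coding genes, while others are transcribed on their own. Genes for tRNA are transcribed by RNA polymerase III from promoters made of an A box and a B box, which the factor TFIIIC binds. In Saccharomyces cerevisiae the box C/D snoRNA gene SNR52 is likewise transcribed by RNA polymerase III, with its A and B boxes ahead of the mature RNA.

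The sequences below are 7 of the snoRNA genes with an optimal peak, shown because a tRNA-type B box word lies just ahead of several of them and not of others. Each line starts 100 bases upstream of the gene and runs to the gene's end on its own strand, read from the RefSeq WBcel235 genome, and the capitals mark matches to GTTCNANNC. C41C4.11 is the minus strand of chrII:8107196-8107370, W03C9.9 the plus strand of chrII:11960798-11960959 and C53B7.8 the plus strand of chrX:6867838-6868008. T03F7.8 is the plus strand of chrV:11314158-11314332, and C51F7.3 is the plus strand of chrV:12303608-12303783, where the upstream stretch is also the end of the neighbouring gene C51F7.4. ZK994.7, the plus strand of chrV:8500479-8500645, and C10C6.8, the minus strand of chrIV:11474059-11474291, have no exact match. The C10C6.8 line holds a near match, described below.
C41C4.11: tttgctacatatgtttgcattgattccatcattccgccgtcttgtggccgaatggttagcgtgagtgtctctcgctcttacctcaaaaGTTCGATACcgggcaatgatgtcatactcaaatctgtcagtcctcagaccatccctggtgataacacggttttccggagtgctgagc
W03C9.9: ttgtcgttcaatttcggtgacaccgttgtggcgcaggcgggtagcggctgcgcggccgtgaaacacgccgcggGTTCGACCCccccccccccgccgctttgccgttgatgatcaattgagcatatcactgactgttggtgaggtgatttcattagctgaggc
C53B7.8: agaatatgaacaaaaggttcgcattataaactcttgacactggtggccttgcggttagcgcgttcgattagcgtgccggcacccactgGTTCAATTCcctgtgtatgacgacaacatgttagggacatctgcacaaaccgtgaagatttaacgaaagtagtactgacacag
T03F7.8: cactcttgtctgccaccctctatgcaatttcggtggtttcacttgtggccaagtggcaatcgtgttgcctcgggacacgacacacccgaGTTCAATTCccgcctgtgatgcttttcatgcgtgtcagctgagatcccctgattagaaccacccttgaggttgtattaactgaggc
C51F7.3: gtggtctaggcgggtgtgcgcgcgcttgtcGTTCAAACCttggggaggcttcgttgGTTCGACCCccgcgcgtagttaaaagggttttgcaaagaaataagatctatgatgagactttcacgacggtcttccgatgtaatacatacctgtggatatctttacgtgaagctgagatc
ZK994.7: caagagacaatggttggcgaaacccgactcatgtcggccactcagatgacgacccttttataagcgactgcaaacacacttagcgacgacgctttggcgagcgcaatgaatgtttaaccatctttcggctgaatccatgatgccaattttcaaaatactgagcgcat
C10C6.8: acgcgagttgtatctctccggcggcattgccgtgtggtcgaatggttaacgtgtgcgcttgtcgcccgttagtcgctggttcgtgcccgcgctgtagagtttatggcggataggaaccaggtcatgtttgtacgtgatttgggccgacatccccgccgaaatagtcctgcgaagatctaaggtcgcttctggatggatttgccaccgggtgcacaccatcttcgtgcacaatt

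SnoRNA genes held many of the strongest nuclear calls and under 1% of all calls of either replicate. Over nuclear calls, 33.3% of the optimal set (10 of 30) and 6.6% of the pooled list lay at snoRNA genes, against 0.723% in replicate 1 and 0.962% in replicate 2. Calls were ranked by signal value, the caller's score of peak strength. Over all calls, mitochondrial ones included, the share among the 50 strongest was 12% in replicate 1 and 22% in replicate 2. Among calls 51 to 100 it was 12% in replicate 1 and 14% in replicate 2. The first nuclear call stood at rank 20 in replicate 1 and 19 in replicate 2, so fewer of the first 50 could be at snoRNA genes. Between ranks 501 and 1000 it was 1.2% in replicate 1 and 1% in replicate 2, and beyond rank 10000 it was 0.489% and 0.517%. The order was not even, since ranks 1001 to 2000 held 0.6% in replicate 1 and ranks 2001 to 5000 held 1.13%. In both replicates the first 100 calls held the higher shares.

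Counted by gene, a call of any strength in replicate 1 was found at 132 snoRNA genes, 38.2% of them (exact 95% binomial interval 33 to 43.5), against 34.9% of the 46890 nuclear genes. In replicate 2 it was 125 snoRNA genes, 36.1% (31.1 to 41.4), against 27.1% of nuclear genes. The replicate 1 share was near the background and its interval held it. A call in both replicates was found at 81 snoRNA genes, 23.4% (19 to 28.2), against 15.9% of nuclear genes and 10.2% of the 9168 other genes with a length in the snoRNA range. Another 51 snoRNA genes had a call in replicate 1 and none in replicate 2, 44 had the reverse, and 170 (49.1%) had none in either. The nuclear genes include 15363 Piwi-interacting RNA (piRNA) genes, with a median length of 21 bases. Of these, 14.5% had a call in replicate 1, 10.3% in replicate 2 and 2.24% in both, so they lower the nuclear background. The excess of snoRNA genes over nuclear genes for calls of any strength is therefore not read as a trait of snoRNA genes. These intervals cover the counting of genes and not variation between animals.

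The strong calls were set against the background in the same way. Among the 1000 strongest calls, replicate 1 held 34 snoRNA genes (9.83%), against 2.83% of nuclear genes, and replicate 2 held 35 (10.1%), against 2.76%. A call among the 1000 strongest of both replicates was found at 17 snoRNA genes, 4.91% (2.89 to 7.75), against 0.586% of nuclear genes. The pooled list reached 44 snoRNA genes, 12.7% (9.39 to 16.7), against 2.21% of nuclear genes and 3.13% of the other genes of snoRNA length. The optimal set reached 11 snoRNA genes, 3.18% (1.6 to 5.62), against 0.13% of nuclear genes. The piRNA genes lower this background too, with a pooled call at 0.273% and an optimal peak at 0%. No test was made of these differences, because 1 group with no control sample allows none over samples.

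tRNA genes, the class with an internal B box, stood close to snoRNA genes in the pooled list and among the 1000 strongest of both replicates. For calls of any strength tRNA genes stood higher, at 50.2% (46.1 to 54.2) in replicate 1 and 45.9% (41.9 to 50) in replicate 2. In both replicates together it was 29.4% (25.8 to 33.2). The pooled share was 12.7% for snoRNA genes and 15.5% for the 612 tRNA genes, and the share in the 1000 strongest of both replicates was 4.91% and 5.23%. The optimal share was 3.18% for snoRNA genes, against 1.14% for tRNA genes, and the intervals of the 2 classes overlapped. For the 129 snRNA genes, which encode splicing and related RNAs, the pooled share was 10.1% and the optimal share 2.33%. Their share in the 1000 strongest of both replicates was 5.43%. Protein-coding genes, whose windows are longer, had a call of any strength in both replicates at 29.2%, above the 23.4% of snoRNA genes, but a pooled call at 3.2%.

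**Figure D1:**
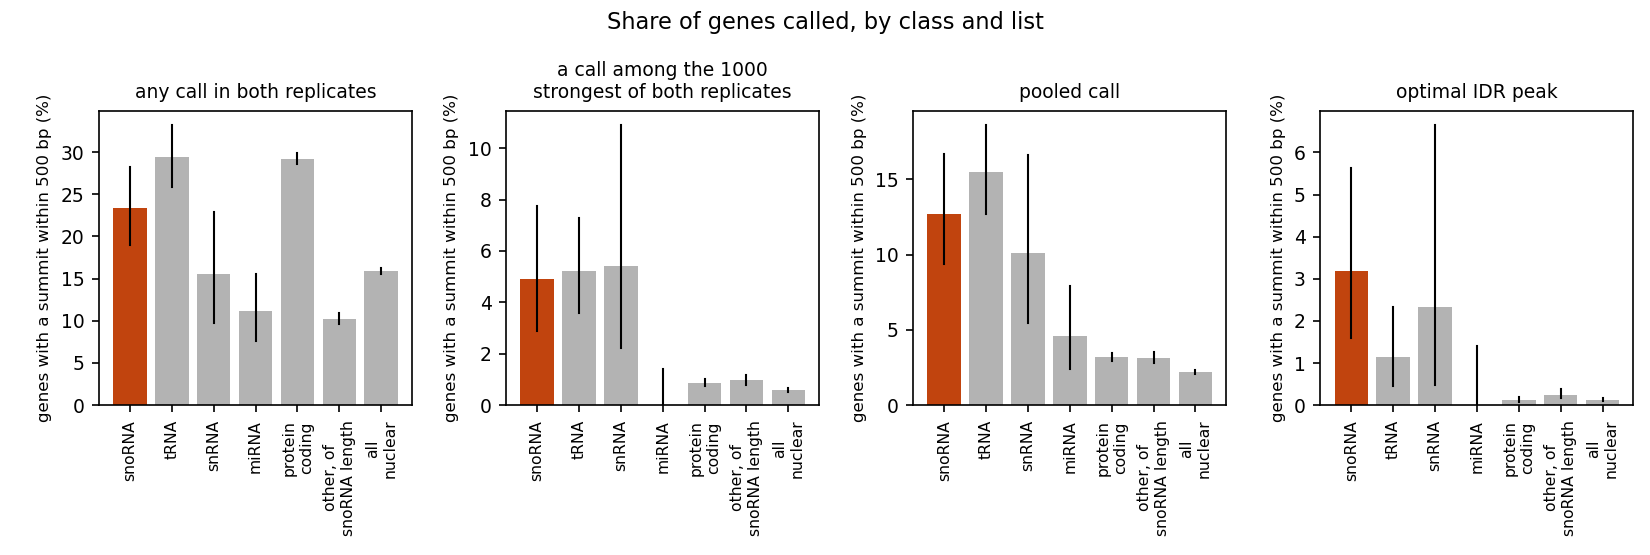
Share of genes (%) with a summit within 500 bp, by class of gene, for 4 lists, with exact 95% binomial intervals as lines. The snoRNA bar (red) stands at 23.4% for any call in both replicates, below protein-coding genes at 29.2%, and at 12.7% for pooled calls, where protein-coding genes stand at 3.2%.

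By signal value, the highest nuclear call in each of the 4 lists was at a snoRNA locus, C51F7.4 with its neighbour C51F7.3. The locus lies inside an intron of frm-7, a gene for a FERM domain protein, on the same strand. C51F7.4 covers chrV:12303599-12303693 and C51F7.3 starts a few bases after it and ends at position 12303783. The signal value was 40.3 in replicate 1, rank 20, and 65.3 in replicate 2, rank 19, and it was 105 in the optimal set. The higher ranks were held by mitochondrial calls. ZK994.7, in an intron of the peroxidasin gene pxn-1 and on its strand, was second in nuclear rank in replicate 1 and in the pooled list, with signal values of 40 and 48.4 in replicates 1 and 2 and 94.7 in the optimal set. W03C9.9, which is intergenic, had 35.6 and 55.5 in replicates 1 and 2 and 86.6 in the optimal set. All 3 loci were among the 25 strongest calls of each replicate, the lowest rank being 24.

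A further pair of intronic genes had an optimal peak. C10C6.8 lies in an intron of catp-8, which encodes a P-type cation-transporting ATPase, on the same strand, and had signal values of 21.8 in replicate 1 and 31.5 in replicate 2, ranks 53 and 44. T03F7.8 lies in an intron of the cuticlin-like gene cutl-18, on the opposite strand, with 16.8 and 32.2 in replicates 1 and 2, ranks 301 and 41. Both were weaker in replicate 1 than the 3 loci above.

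The remaining optimal loci lie outside genes or at an edge. C41C4.11, intergenic on chromosome II with 2 protein-coding 5′ ends within 500 bp, had signal values of 18.8 and 26.9 in replicates 1 and 2, ranks 141 and 90. C53B7.8, intergenic on X, had 19 and 31.1, ranks 130 and 47. ZK265.10, at chrI:8259437-8259498 and intergenic, had 24.1 and 38.8, ranks 33 and 26. T02E1.9, at chrI:8224474-8224544, overlaps the edge of spe-12, a gene needed for sperm activation, on the opposite strand, and had 23.9 and 35.2, ranks 34 and 31. These 4 loci were thus within the 150 strongest calls of both replicates.

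F59C6.15 was the exception among the 10. This intergenic gene on chromosome I, at 10516978 to 10517150, had a signal value of 38.6 and rank 27 in replicate 2, but 11 and rank 3950 in replicate 1, where the authors' q-value was 0.647. Of its 32-base words, 68.3% occur elsewhere in the genome, where 8 of the 10 loci had no repeated word and C53B7.8 had 12.5%. A read from a repeated word cannot be placed by sequence alone, and the part of this in the call was not tested. Over the 10 loci the authors' q-values in the optimal set ran from 0.104 to 0.2, so none was under 0.1. The order by q was not that by signal value. C51F7.4, highest by signal value, had the q-value of 0.2, and C53B7.8, with a signal value of 52.2, that of 0.104. By q, C51F7.4 ranked 222 in replicate 1 and shared rank 1 in replicate 2. No tRNA or snRNA gene lay in any of the 10 windows.

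Summits at the optimal loci lay just ahead of the snoRNA gene or in it. Measured along the gene's strand from its first base, the optimal summit was at a median of -22.5 bp, with 6 summits upstream, 4 inside and 0 downstream of the gene. The medians for the same loci were -53.5 bp in replicate 1 and -37.5 bp in replicate 2. The summits of the 2 replicates lay a median of 66.5 bp apart and within 100 bp at 8 of the 10 loci. The exceptions were C41C4.11, with replicate summits at -302 and -82 bp, and T03F7.8, at 11 and -99 bp. F59C6.15 was the locus with summits at the far end of the gene, at 171 and 237 bp.

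**Figure D2:**
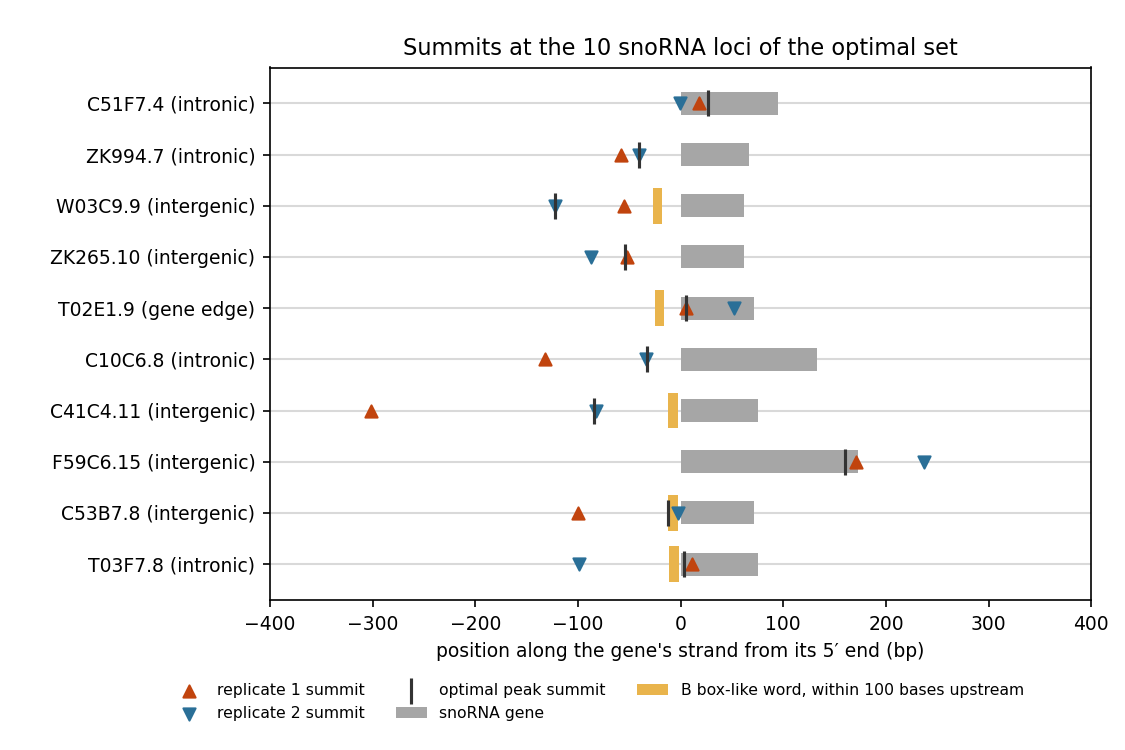
Position (bp, from the first base of the gene, along its strand) of the replicate 1, replicate 2 and optimal summits at the 10 snoRNA loci of the optimal set, with the gene as a grey bar and a match to the B box word as a yellow bar. The C51F7.4 row leaves out C51F7.3 and its word, and the optimal summits lie upstream of the gene at 6 loci and inside it at 4.

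Over all snoRNA genes, a larger share of strong calls than of weak ones lay within 100 bp of the 5′ end in both replicates. In replicate 2 the summits of the 1000 strongest calls had a median position of -11.5 bp, and 28 of 36 (77.8%) lay within 100 bp of the 5′ end, against 27.7% of the weaker calls. In replicate 1 the median was -3.5 bp and 37.5% of the strong calls lay that near, against 25.8% of the weaker. Pooled summits had a median of -2 bp, with 28 of 43 (65.1%) within 100 bp. All summits of replicate 1 together had a median of 26.5 bp and those of replicate 2 of -3 bp. Strong summits of replicate 2 lay closer to the 5′ end than those of replicate 1.

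Counting outward from the 5′ ends, replicate 1 placed 81 summits within 200 bp and replicate 2 placed 89. Per 200-bp bin, that was 2.55 times the mean beyond 2000 bp in replicate 1 and 3.66 times in replicate 2. For the 1000 strongest calls the ratios were 14.4 and 17.5, and for pooled calls the ratio was 26.4. The edge of the window fell in sparse ground for pooled calls, with the nearest summit between 401 and 500 bp away at 2 genes and between 501 and 600 bp at 2. The same counts were 11 and 15 in replicate 1 and 7 and 17 in replicate 2. Among the bins plotted, those next to the 5′ end held the most summits in both replicates.

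**Figure D3:**
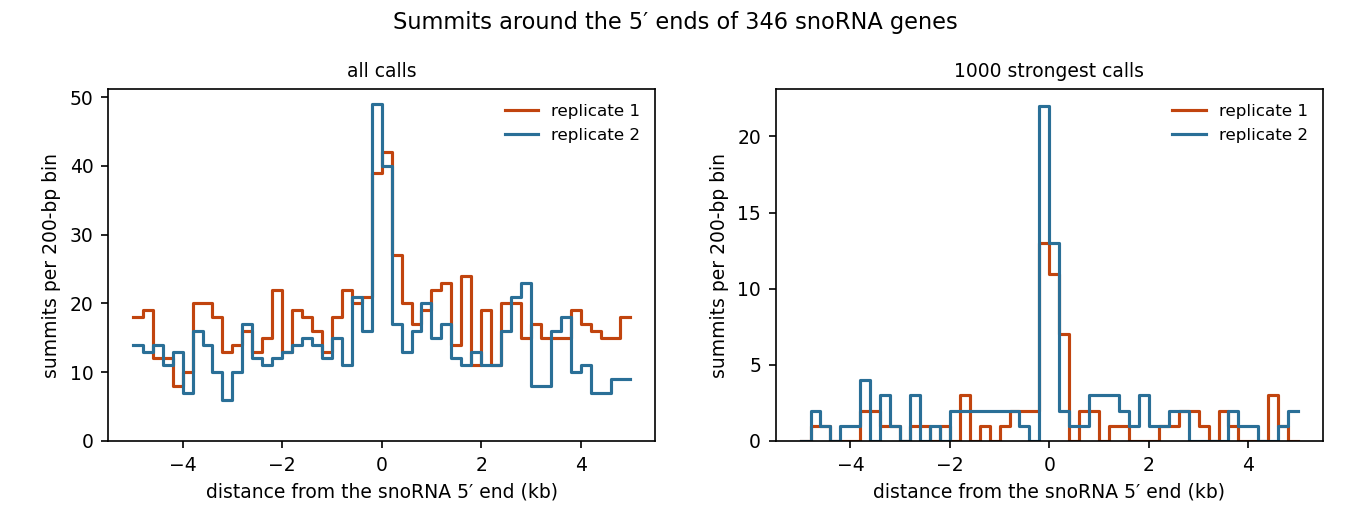
Number of summits per 200-bp bin against distance (kb) from the 5′ ends of the 346 snoRNA genes, along the gene's strand, for all calls (left) and the 1000 strongest calls (right) of replicate 1 and replicate 2. Within 200 bp there were 24 strong summits in replicate 1 and 35 in replicate 2, against 0 to 4 per bin beyond 2 kb.

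Windows that overlap were merged, which gave 321 loci, 21 of them of over 1 gene. Replicate 1 called 124 loci and replicate 2 called 114, and 77 were called in both, 62.1% of the replicate 1 loci and 67.5% of the replicate 2 loci. The median best rank over the called loci was 4572 in replicate 1, whose list has its middle at 10526, and 3546 in replicate 2, with a middle of 7129. The best ranks of the 77 loci had a Spearman correlation of 0.51, and of 0.35 (n = 67) without the 10 optimal loci, a description only since both lists share 1 control library. Of the 77, 17 were within the 1000 strongest of both replicates, 10 within the 1000 strongest of replicate 1 but not of replicate 2, 12 the reverse, and 38 in neither. The replicate summits lay within 100 bp at 11 of the 17 loci strong in both (64.7%), against 25 of the other 60 (41.7%). Of those 17, only 8 were outside the optimal set. Optimal loci were kept by the IDR procedure, so the 64.7% may have been partly set by that choice and no conclusion is drawn from it. An optimal locus need not rank alike in both replicates, as F59C6.15 stood at 3950 and 27. Of the 42 loci with a pooled call, 41 had a call in both replicates.

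**Figure D4:**
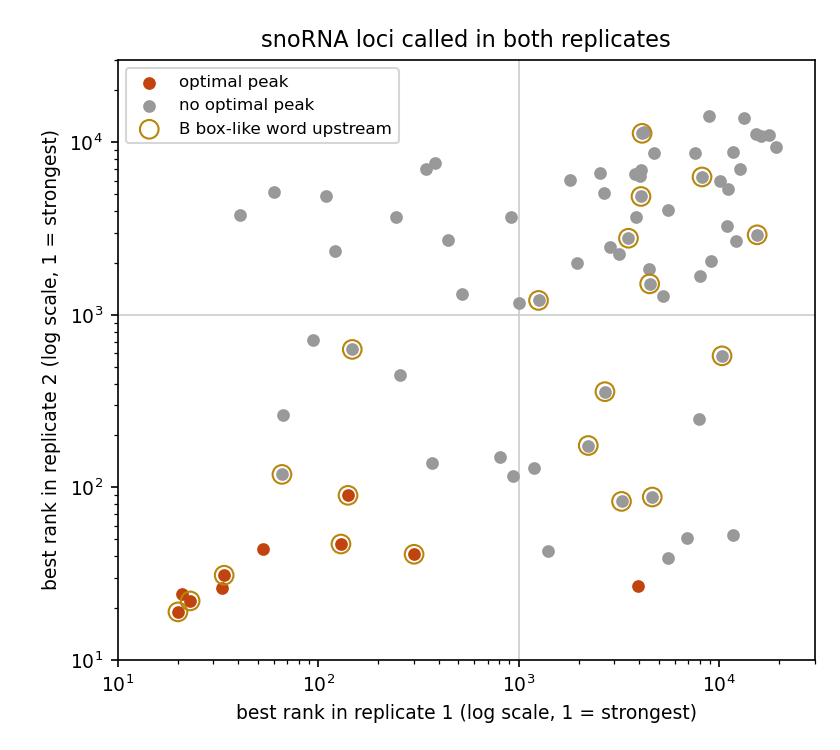
Best rank in replicate 1 against best rank in replicate 2 (log axes, 1 is the strongest) for the 77 snoRNA loci called in both, with optimal loci in red and loci with a B box word upstream circled. Of the 10 optimal loci, 9 lie in the lower left, and F59C6.15 lies at rank 3950 of replicate 1 and 27 of replicate 2.

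The 10 loci that came next, ordered by the worse of their 2 ranks, led with ZK484.9, in an intron of haf-9, an ABC transporter gene, on the opposite strand, at ranks 66 and 119 in replicates 1 and 2. T06C12.16, intergenic on chromosome V, was at ranks 67 and 264, and C27H6.5, in an intron of unc-41, the stonin gene needed for synaptic vesicle recycling, at 369 and 139. The summits of T06C12.16 lay at -12 and 6 bp and those of C27H6.5 at -50 and -33 bp, as near to the 5′ end as at the optimal loci. F47G4.9 was at ranks 257 and 448, and T19B4.8 at 148 and 631, both on chromosome I. The T19B4.8 summits lay apart, at 290 and -38 bp, and so did those of H09I01.2, at 173 and -21 bp. Y23H5B.10, of 144 bases, was at 94 and 714, H09I01.2 at 935 and 117, F19H8.6, in an intron of mltn-9, at 1004 and 1173, and T26A8.6 at 1193 and 130. The other locus of the 10 holds K07C5.12, K07C5.10, K07C5.11 and K07C5.18, all within nol-56, whose product is the Nop56 protein of box C/D particles. Its ranks were 810 and 150, but the summits lay at -311 and 958 bp from the start of K07C5.12, the second of them inside K07C5.18, so the replicates did not call the same place.

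Strong calls with no partner were also found. In replicate 1, Y55F3BR.9, in an intron of Y55F3BR.2, was called at rank 51, F58D5.12, in an exon of F58D5.5, at rank 342 and B0228.10, in an intron of the copine gene cpna-2, at rank 469, with no call at these loci in replicate 2. In replicate 2, F32E10.10, intergenic on chromosome IV, was called at rank 82, F25H5.9, in an intron of the pyruvate kinase gene pyk-1, at rank 415 and ZK484.11 at rank 747, with none in replicate 1. Of these 6, F32E10.10 alone had a pooled call, at rank 151.

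Short snoRNA genes made up 24 of the 44 genes with a pooled call and 8 of the 11 with an optimal peak. Of the 56 genes of 80 bases or shorter, 33 (58.9%, exact 95% interval 45 to 71.9) had a call in both replicates, 24 (42.9%, 29.7 to 56.8) had a pooled call and 8 had an optimal peak. Of the 290 longer genes, 48 (16.6%, 12.5 to 21.3) had a call in both replicates, 20 (6.9%, 4.26 to 10.5) a pooled call and 3 an optimal peak. Among 1349 other genes of 54 to 80 bases that are not tRNA genes, 6.67% had a call in both replicates and 1.48% a pooled call. With tRNA genes included, the shares were 13% and 5.26% of 1845 other genes of that length. By place, the pooled share was 32.4% of short against 6.52% of longer intronic genes, and 60% against 8.65% of intergenic genes. Of the 56 short genes, 54 have a WormBase number below 100000. Within it a call in both replicates was found at 61.1% of short genes (46.9 to 74.1), against 36.5% of 85 longer ones (26.3 to 47.6), and a pooled call at 44.4% (30.9 to 58.6), against 17.6% (10.2 to 27.4). It was not a steady fall with length, as 14.7% of genes of 81 to 120 bases, 23% of those over 120 and up to 160 bases and 9.68% of longer ones had a call in both replicates. The limit of 80 bases was set with values of these data known.

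Intronic, intergenic and exonic genes were also counted apart. A call in both replicates was found at 44 of 172 intronic genes (25.6%, 19.2 to 32.8), 29 of 124 intergenic genes (23.4%, 16.3 to 31.8) and 6 of 45 exonic genes (13.3%, 5.05 to 26.8), and these intervals overlapped. A pooled call was found at 20 of the intronic genes (11.6%, 7.25 to 17.4), 21 of the intergenic (16.9%, 10.8 to 24.7) and 1 of the exonic (2.22%, 0.0562 to 11.8). The 10 optimal loci were 4 intronic, 5 intergenic and 1 at a gene edge. Intronic genes on their host's strand had a pooled call at 9.79% of 143, and those on the opposite strand at 21.4% of 28 (8.3 to 41), with overlapping intervals. The 19 genes in introns of ribosomal protein genes, a common home of snoRNAs, had a call in both replicates at 4 and a pooled call at 0, which allows a share of up to 17.6% by the exact interval, against 20 of 153 (13.1%) for other hosts. A split by WormBase gene number, chosen after values had been seen, was also made, since numbers are in general given out as genes are added. Of the 139 snoRNA genes numbered below 100000, 46% had a call in both replicates and 28.1% a pooled call, against 8.21% and 2.42% of the 207 numbered above it. Below that number, 56.2% of 32 intergenic genes (37.7 to 73.6) and 19.4% of 98 intronic genes (12.1 to 28.6) had a pooled call, and those intervals did not overlap. These groups had median lengths of 75.5 and 126 bases, so place and length are mixed in this split. Among all genes of 80 bases or shorter, the pooled share was 60% of intergenic (36.1 to 80.9) and 32.4% of intronic genes (17.4 to 50.5), which overlap. Among longer genes it was 8.65% and 6.52%.

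Other traits of the genes were set beside their calls. Genes called in both replicates had a median GC content of 43%, those called in 1 replicate 40.5% and those called in neither 38.1%. Over 50% of the 32-base words were repeated in 1 of the 81 genes called in both, 3 of the 95 called in 1 and 16 of the 170 called in neither, and how well reads map there was not tested. A protein-coding 5′ end within 500 bp went with a call in both replicates at 19 of 67 genes (28.4%, 18 to 40.7), against 62 of 279 (22.2%, 17.5 to 27.6) without one, and these intervals overlapped. By chromosome the share called in both ran between 15.2% of 33 genes on X and 32.7% of 55 on V. A tRNA gene lay in the window of 2 snoRNA genes and an snRNA gene in that of 2.

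**Figure D5:**
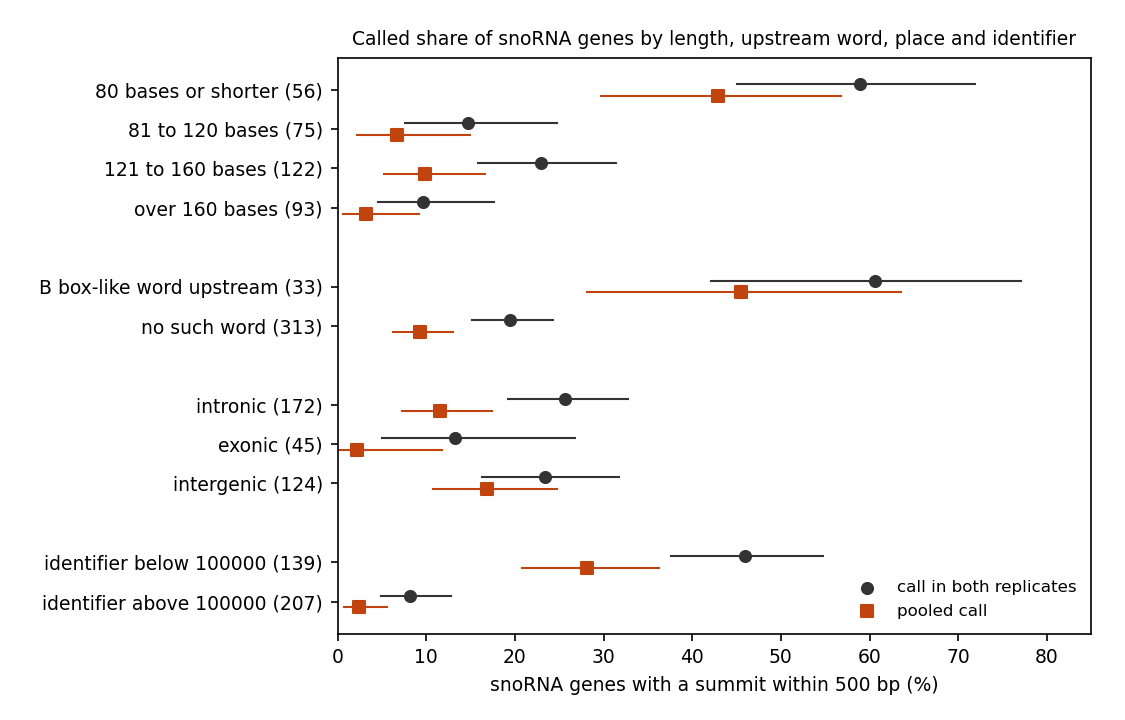
Share (%) of snoRNA genes with a call in both replicates (black circles) and with a pooled call (red squares), by length, upstream B box word, place and identifier, with exact 95% intervals as lines and the number of genes in brackets. Genes of 80 bases or shorter stand at 58.9% and 42.9%, and genes with the word, which was picked from optimal loci, at 60.6% and 45.5%.

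Some snoRNA genes had a tRNA-type B box word just upstream, and the calls at these genes were counted apart. The word GTTCGANNC, a common form of the tRNA B box, was searched on the gene's strand in the 100 bases upstream. It was found at 17 snoRNA genes (4.91%), against 0.262% of nuclear genes and 0.469% of other genes of snoRNA length. The plan named this word as an internal one. Whether the upstream stretch was chosen before the sequences were seen is not recorded, so it is not a preset check. On the reverse strand it was found upstream of 1 snoRNA gene (0.289%). The looser word GTTCNANNC, which includes every GTTCGANNC and was chosen after the sequences of the optimal loci had been seen, was found at 33 (9.54%), against 1.39% of nuclear genes, and on the reverse strand at 3 (0.867%). Its first base lay 9 to 17 bases ahead of the gene at 24 of the 33, with a median of 14. A match shows letters in a window and not a working promoter.

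The word GTTCGANNC went with calls as follows. A call in both replicates was found at 70.6% of the 17 genes with it (exact 95% interval 44 to 89.7) and 21% of the 329 without (16.7 to 25.8), and a pooled call at 47.1% (23 to 72.2) and 10.9% (7.78 to 14.8). Without the 11 optimal genes, the share in both was 64.3% of 14 with it and 19% of 321 without, and the pooled share 35.7% and 8.72%. These values were thus lower without the optimal genes, and higher with the word than without it. Of the 17 genes with the word, 16 have a WormBase number below 100000. Within that group, optimal genes kept, a call in both replicates was found at 75% of the 16 (47.6 to 92.7). It was found at 42.3% of 123 genes without the word (33.4 to 51.5). The pooled share was 50% (24.7 to 75.3) and 25.2% (17.8 to 33.8), and the intervals overlapped in both pairs.

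The looser word was picked from the sequences of the optimal loci, so the 6 optimal genes that carry it had to count for it. With them, 20 of 33 genes with the word (60.6%) had a call in both replicates and 15 (45.5%) a pooled call, against 61 (19.5%) and 29 (9.27%) of the 313 without. Without the optimal genes, 14 of 27 with the word (51.9%, 31.9 to 71.3) had a call in both and 9 (33.3%, 16.5 to 54) a pooled call, against 56 (18.2%, 14 to 23) and 24 (7.79%) of 308 without. Among genes with a WormBase number below 100000, optimal genes kept, the share in both was 74.1% with the looser word and 39.3% without. The pooled share was 55.6% and 21.4%.

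Among genes of 80 bases or shorter the 2 groups were not set apart by these counts. Without the optimal genes, a pooled call was found at 5 of 9 short genes with the looser word (55.6%, 21.2 to 86.3) and 11 of 39 without (28.2%, 15 to 44.9), and a call in both replicates at 55.6% and 51.3%. With GTTCGANNC and all short genes, the pooled share was 55.6% of 9 with it and 40.4% of 47 without, and the share in both 55.6% and 59.6%. Without the optimal genes, the pooled share was 33.3% of 6 short genes with GTTCGANNC and 33.3% of 42 without. The share in both was then 33.3% (4.33 to 77.7) with it and 54.8% (38.7 to 70.2) without. The intervals overlapped in each of these pairs.

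Outside the optimal genes, the median rank of genes called in replicate 1 was 4076 with the looser word and 5554 without, and in replicate 2 it was 605 and 5377. The gap was wider in replicate 2. Summits of genes with the word lay within 100 bp of it at 7 of 15 genes in replicate 1, 12 of 16 in replicate 2 and 8 of 9 in the pooled list. At genes without it, summits lay within 100 bp of the 5′ end at 25.5%, 29.6% and 45.8% in the same lists. The word lay a median of 14 bases ahead of the gene, so nearness to the word and to the 5′ end cannot be told apart.

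At the optimal loci the looser word lay upstream of 6 of the 11 genes, starting 44 bases ahead of C51F7.3, 27 ahead of W03C9.9, 25 ahead of T02E1.9, 12 ahead of C41C4.11 and C53B7.8, and 11 ahead of T03F7.8. In the printed sequences these are the capitals nearest to each gene, T02E1.9 not being printed, and the C51F7.3 line has another match farther upstream. ZK994.7, ZK265.10, C10C6.8 and F59C6.15 had no exact match, although ZK994.7 was among the strongest calls of all lists. The printed stretch ahead of C10C6.8 holds gttcgtgcc, which differs from GTTCGANNC only in having t in place of A. C10C6.8 is therefore not a clear contrast to the loci with the word, and near matches were not counted. The words of the mature snoRNA boxes were searched as well. The box C word TGATGA lay in the first 25 bases of 21 snoRNA genes (6.07%), against 0.938% of other genes of their length, and the box D word CTGA in the last 20 bases of 81 (23.4%), against 7.06%. The letters ACA lay in the last 12 bases of 113 (32.7%), against 14.5%. Of the 81 genes with the box D word, 22 (27.2%, 17.9 to 38.2) had a pooled call, and of the 113 with ACA, 13 (11.5%, 6.27 to 18.9). These intervals overlapped, and the share over all 346 snoRNA genes was 12.7%. Genes with the box D word had a median length of 91 bases and those with ACA of 131, and the part of length was not tested.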

How the data were processed

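ChIP-seq peak lists of 2 replicates of 1 group were analysed as deposited on ce11. The authors' signal value is a score of unstated scale and ranked the calls of each list. Deposited −log10 q-values were converted to q. Each permissive list was made from the immunoprecipitated library and 1 shared control, per the deposited notes. The aligner, the caller and its cutoffs were not given in the sources used here. The ce10 lists were not used.

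Genes came from Ensembl release 115, and sequences from the RefSeq WBcel235 genome, of the same assembly. Of the 346 snoRNA genes, 345 had the same symbol and coordinates in RefSeq. A gene was exonic with at least 50% of its bases in protein-coding exons, otherwise intronic, intergenic or at a gene edge. Repeated words are 32-base words that occur more than once in the genome. Intervals are exact (Clopper-Pearson) at 95%. No test was made, since 1 group without a control sample allows none. The genes named are all with an optimal summit, the 10 next loci by the worse of their replicate ranks, the 3 strongest loci per replicate with no call in the other, and their hosts. The members, lists and thresholds were chosen with earlier results of these data known. Other windows, overlap rules, list depths, length limits and words were tried. Scripts were checked on simulated data and used Python 3.11.15, numpy 2.4.6, pandas 2.3.3, scipy 1.17.1 and matplotlib 3.10.9.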

Additional observations from a re-analysis of the deposited data

How the results depend on the processing

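Of 86 alternatives over 16 results, 61 kept the value within the limit (for counts, 1.5 times) and 25 moved it. With the summit required inside the gene, the snoRNA genes called were 24 in replicate 1, 25 in replicate 2, 5 in both, 12 pooled and 4 optimal, and the calls 24, 25, 12 and 4. Genes called in both were then 2 intronic and 1 intergenic. With a window of 1000 bp, 124 genes were called in both, 70 of them intronic, and the calls were 240 in replicate 1 and 207 in replicate 2. With 250 bp, the calls of replicate 1 were 101 and intronic genes called in both 27, and with overlap of the called interval 100 and 27. The 1000 strongest calls reached 34 genes in replicate 1 and 35 in replicate 2. Without replicate 1 or without replicate 2, the count of genes called in both becomes that of a single list and ranged from 125 to 132. The share of short genes called in both was 78.9% at 70 bases or shorter and 41.1% at 100 bases or shorter, limits chosen after seeing the data. The pooled and optimal lists could not be recomputed without a replicate. No paired analysis was possible because there is 1 group and no test. Read depth is unknown, so whether a missing call reflects depth was not tested.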

Other observations

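The B box word was also looked up over the whole genome, on either strand, counting matches with a summit within 250 bp. Upstream of snoRNA genes there were 20 matches to GTTCGANNC, and 9 (45%) had a pooled call. Inside tRNA genes there were 477, and 59 (12.4%) had one. Elsewhere there were 7773, and 35 (0.45%) had one. In replicate 1 the shares were 50% upstream of snoRNA genes, 36.1% in tRNA genes and 10.4% elsewhere, and in replicate 2 they were 75%, 36.1% and 7.13%. With GTTCNANNC, a word chosen after sequences had been seen, 17 of 42 matches upstream of snoRNA genes (40.5%), 14.1% of 625 in tRNA genes and 0.325% of 38193 elsewhere had a pooled call. Optimal peaks lay at 7 of these 42 matches, and at 3 of the 20 to GTTCGANNC, and were not left out. The looser word was picked from optimal loci, so its share upstream of snoRNA genes was partly set by that choice. Matches of neighbouring genes can share a call, and these shares were not tested.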
